A study of Mus musculus with 34 samples.

Results

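The comparison described here is the last step in a graded series of T cell cultures, 6 libraries labelled Tfh2_6e4 against 6 labelled Tfh2_4e4. These are 12 of the 34 libraries of the study, and they were taken by the group name in each title, with no measured value used. The starting cells were naive CD4 T cells (C57BL/6 mouse), activated by plate-bound anti-CD3 and anti-CD28, cultured for 3.5 days and sorted by flow cytometry. The label number is 1.5 times higher in Tfh2_6e4 (60000) than in Tfh2_4e4 (40000), and the culture code, Tfh2, is the same. The labels state neither the unit of the number, nor what the code stands for, nor which cytokines the medium held, nor the sort gate, and they name no genetic change. The title of the series speaks of TGF-β, of c-Maf, a transcription factor, and of TH17 cells beside TFH (follicular helper) cells as alternative fates. Values for 6 libraries of Tfh2_1e4 (10000) and 5 of Tfh2_2e4 (20000) are given where the last step is set against the first. It is not stated whether replicates are different mice, different cultures or repeats of 1 culture, and a p-value here therefore covers only library-to-library spread, which may be technical.

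TGF-β is a secreted cytokine that is stored in a latent form, released near the cell surface, and read by a pair of receptor kinases that switch on SMAD transcription factors. In activated CD4 T cells it works with IL-6 and related cytokines, and depending on their mix the cells take on TH17, TFH or regulatory features. SMADs raise their own brakes, such as Pmepa1, so the RNA of such feedback genes is commonly read as a gauge of the signal. Activated T cells also divide rapidly, switch to glycolysis, and use up oxygen and cytokines in a dense culture, so cell cycle genes and genes of the low-oxygen (hypoxia) response are commonly read beside fate genes.

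Total counts ranged from 6548499 to 9934245 per library in Tfh2_4e4 and from 6610836 to 9247251 in Tfh2_6e4. About as large a share of counts in each group, 50.8% and 50.2% on average, fell on 2 identifiers with no symbol. The mitochondrial rRNA share of the other counts was 9.92% ± 0.989 in Tfh2_4e4 and 10.2% ± 1.2 in Tfh2_6e4 (SD, n = 6 each; exact permutation test, two-sided, p = 0.677). All 9 T cell markers passed the filter on low counts, while none of 6 B cell, 8 myeloid or 5 red cell markers did. Cd8a, which defines CD8 T cells, had 5 counts over Tfh2_4e4 and 2 over Tfh2_6e4. The other CD8 marker, Cd8b1, passed the filter with 338 and 288 counts, 7.6 and 6.44 CPM on average. The NK cell genes Ncr1 and Klrb1c had 0 counts in both groups. Of the remaining NK cell genes, Klrk1 passed the filter with 25 and 5 counts, and Gzma had 23 and 21. Cd3e and Cd4 were at 201 and 105 CPM on average in Tfh2_4e4 and at 210.4 and 123 in Tfh2_6e4, levels that fit the label of CD4 T cells.

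One library of the step stood apart. In Tfh2_4e4 replicate 3 the summed level of 10 genes that are high in the TfhA_4e4 cultures of the same study was 322 CPM (read counts divided by the scaled library size), where the 5 others of its group had 94.4 to 109 and the Tfh2_6e4 libraries 85.5 to 109. These genes were picked on these libraries in earlier work, so their height there is a description. S100a6, for example, was at 76.0 CPM in that library, 19.5 to 27.3 in the other 5 and 480.4 ± 71.9 in TfhA_4e4 (SD, n = 5). Results are therefore given with this library and without it. Tfh2_2e4 replicate 6, which enters where the last step is set against the first, was the highest of its group for most of these genes. It was not so for Zbtb32, at 17.0 CPM against 12.7 to 19.3, or for Dock10, at 7.79 CPM against 4.4 to 11.4. It had 67.2 CPM against 17.7 to 30.4 in the other 4 for S100a6, 61.1 CPM against 4.13 to 18.5 in the other 4 for Nrn1 and 4.45 CPM against 0.189 to 0.844 in the other 4 for Tbx21.

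The sequences upstream of 6 genes are shown first. All of them but Bnip3 differed between Tfh2_4e4 and Tfh2_6e4 by the test used below. Serpinb5 and Ly6c1 were the largest rises and Sox4 and Ncapg2 the largest falls by the rule for named genes. Mcm5 stands for the DNA replication genes that fell and Bnip3 for the low-oxygen genes whose rise per doubling was smaller in this step than in the first, and these last were chosen after their values were seen. Each run lies upstream of a RefSeq transcription start in GRCm38.p6, 5′ to 3′ on the gene's strand, and ends where the annotated gene begins. Capitals mark a match, on either strand, to 1 of 4 short motifs. These are ACGTG, the core bound by hypoxia-inducible factors, CCAAT, bound by NF-Y, GCGGGAA, a form bound by E2F factors, and CAGACA, which contains the SMAD box. The letters CACGTG hold ACGTG on both strands, so those 2 matches overlap. Runs for Tk1, Aldoc and Vldlr were also taken but are not printed. None of the 4 motifs lay in those for Tk1 and Aldoc or in the first of 2 entries for Vldlr, whose other entry held CCAAT. Tk1 fell more than Mcm5 in this step, and Aldoc and Vldlr differed more than Bnip3 between the steps.
Serpinb5 (chr1:106860925-106861174, plus strand, 250 bases): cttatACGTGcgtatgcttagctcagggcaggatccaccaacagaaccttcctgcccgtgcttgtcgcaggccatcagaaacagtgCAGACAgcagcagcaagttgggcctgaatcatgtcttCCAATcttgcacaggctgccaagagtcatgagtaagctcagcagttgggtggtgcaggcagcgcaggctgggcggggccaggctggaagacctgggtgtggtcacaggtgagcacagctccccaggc
Ly6c1 (chr15:75048921-75049087, minus strand, 167 bases): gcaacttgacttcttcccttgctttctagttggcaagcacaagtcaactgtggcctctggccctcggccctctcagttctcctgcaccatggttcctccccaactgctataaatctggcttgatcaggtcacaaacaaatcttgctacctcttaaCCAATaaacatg
Sox4 (chr13:28953700-28953949, minus strand, 250 bases): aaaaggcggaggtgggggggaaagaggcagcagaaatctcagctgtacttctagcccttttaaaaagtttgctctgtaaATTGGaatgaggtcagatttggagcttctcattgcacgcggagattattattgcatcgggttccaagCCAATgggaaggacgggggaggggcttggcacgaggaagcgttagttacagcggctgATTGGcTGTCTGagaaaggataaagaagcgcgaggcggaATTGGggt
Ncapg2 (chr12:116405186-116405350, plus strand, 165 bases): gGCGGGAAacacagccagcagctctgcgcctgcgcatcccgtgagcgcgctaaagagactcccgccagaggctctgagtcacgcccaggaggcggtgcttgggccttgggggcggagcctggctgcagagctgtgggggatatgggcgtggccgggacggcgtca
Mcm5 (chr8:75109259-75109467, plus strand, 209 bases): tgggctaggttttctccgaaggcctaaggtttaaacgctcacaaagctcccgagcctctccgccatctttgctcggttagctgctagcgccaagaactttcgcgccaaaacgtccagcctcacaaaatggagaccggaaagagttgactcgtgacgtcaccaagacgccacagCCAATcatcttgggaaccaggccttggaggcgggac
Bnip3 (chr7:138909507-138909756, minus strand, 250 bases): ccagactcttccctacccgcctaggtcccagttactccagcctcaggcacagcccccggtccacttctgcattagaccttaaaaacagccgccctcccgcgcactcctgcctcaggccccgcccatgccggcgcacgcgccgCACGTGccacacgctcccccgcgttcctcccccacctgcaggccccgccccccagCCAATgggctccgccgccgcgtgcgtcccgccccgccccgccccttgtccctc

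Sox4 held CCAAT or its complement 4 times and the SMAD motif once in these bases, Ly6c1 held CCAAT once and Bnip3 held CACGTG. A 250-base window was searched for every gene of the table, and a gene counts where any of its entries matches. CCAAT was found in 37.5% of all genes of the table and 40.8% of the tested genes with an entry, in 46 of 73 (63.0%) of the genes that fell in this step and in 18 of 52 (34.6%) of those that rose. In the list of mitosis genes 19 of 21 (90.5%) held it, and in the DNA replication list 14 of 25 (56.0%). GCGGGAA was in 4.38% of all genes, 8.4% of tested genes, 11 of 73 (15.1%) of the falling genes and 5 of 25 (20%) of the DNA replication list, and in 3 of 19 (15.8%) of the glycolysis list and in 0 of 21 of the mitosis list. ACGTG was in 18.5% of all genes, 25.9% of tested genes, 15 of 22 (68.2%) of the hypoxia list and 10 of 19 (52.6%) of the glycolysis list, and in 11 of 52 (21.2%) of the rising and 15 of 73 (20.5%) of the falling genes. CAGACA was in 19.3% of all genes, 15.6% of tested genes and 5 of 10 (50.0%) of the TGF-β response list, and in 13 of 52 (25%) of the rising and 15 of 73 (20.5%) of the falling genes. A match is a description of letters and not a bound site.

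Across the transcriptome the step moved few genes. Of 11357 genes tested, 168 passed at an adjusted p under 0.05 (1.48%), 70 higher in Tfh2_6e4 (0.616%) and 98 lower (0.863%). Counts of called list members below are to be read beside these shares. The median log2 fold change over all tested genes was -0.01. Ly6c1, Lrrc32, Tnfrsf9 and Pim2 were among the genes that rose. Sox4, Tox, Pmepa1, Ccr6 and 9 genes of DNA replication and nucleotide synthesis were among those that fell. In the terms used below, a gene rose or fell only where it passed this test, fold changes are Tfh2_6e4 over Tfh2_4e4 on the log2 scale, and CPM values are given as lowest, median and highest of the 6 libraries of a group. Without Tfh2_4e4 replicate 3 the count was 75, and all of these were among the 168. Leaving out other libraries also moved the count by over 1.5 times, to 81 without Tfh2_4e4 replicate 1, 269 without Tfh2_4e4 replicate 4, and 96, 108 and 55 without Tfh2_6e4 replicate 2, 4 or 5. The balance of directions depended on the tool, since limma-voom called 121 higher and 60 lower and DESeq2 138 higher and 137 lower. In bulk RNA, fewer cells of a kind and less RNA per cell cannot be told apart.

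**Figure D1:**
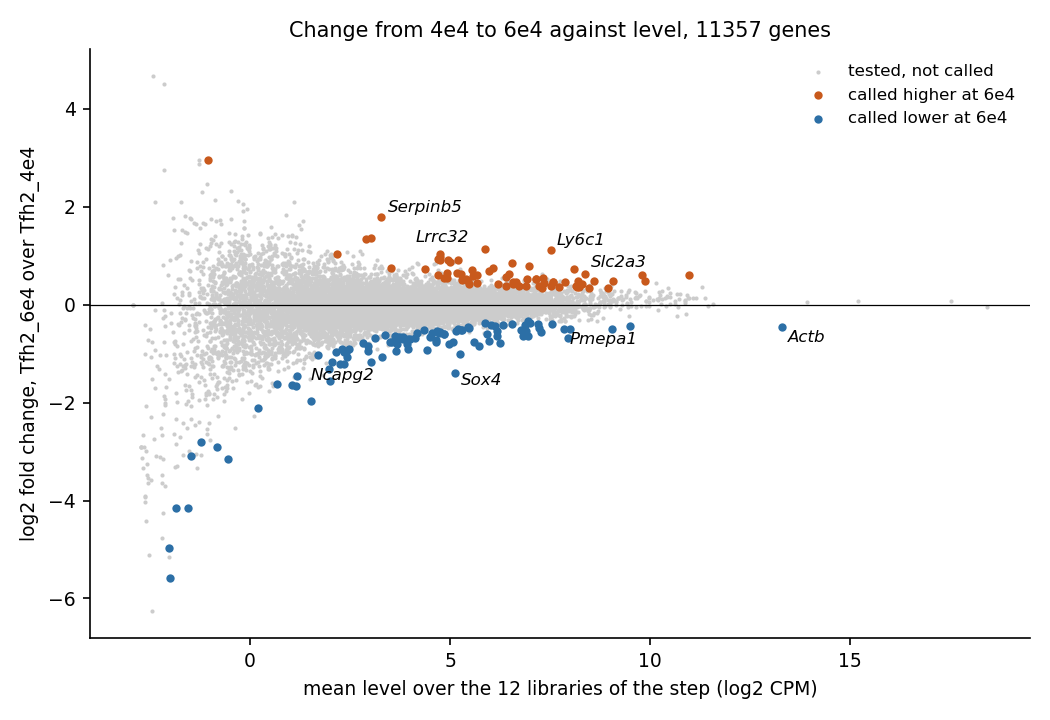
Log2 fold change of Tfh2_6e4 over Tfh2_4e4 (vertical axis) against the mean level over the 12 libraries in log2 CPM (horizontal axis); each point is 1 of 11357 tested genes. The 70 genes called higher (orange) and 98 called lower (blue) lie along the edges of a cloud centred near 0, and the steepest calls sit at the low end of the axis.

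The TGF-β response genes that moved did so in both directions. Sox4, a transcription factor gene on chromosome 13 (28948919 to 28953699) that TGF-β induces in T cells, showed the steepest fall among called genes averaging 3 or more in log2 CPM. It was at 31.8, 55.7 and 85.1 CPM in Tfh2_4e4 and at 14.4, 20.4 and 29.3 in Tfh2_6e4. Every Tfh2_6e4 library was below every Tfh2_4e4 library, with a log2 fold change of -1.39 ± 0.18 (SE; adjusted p = 4.07e-06), a 2.62-fold fall. Without replicate 3 the value was -1.38 (adjusted p = 1.77e-05). Pmepa1, on chromosome 2 (173224458 to 173276731), encodes a membrane protein that holds back SMAD activation. Its level was 248, 263 and 302 CPM in Tfh2_4e4 and 172, 184 and 225 in Tfh2_6e4, again with no overlap, and it fell by 0.49 ± 0.09 (SE; adjusted p = 6.48e-04) on the log2 scale. The plot of leading genes by library shows both. Nt5e, which encodes CD73, an enzyme that makes adenosine at the cell surface, went from 88.3, 107 and 127 CPM to 77.2, 82.1 and 87.1, a change of -0.39 ± 0.10 (SE; adjusted p = 0.0398). Its call was lost without Tfh2_4e4 replicate 1, 3, 4 or 6 or Tfh2_6e4 replicate 2, 3, 4, 5 or 6.

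Lrrc32, on chromosome 7 (98489305 to 98501831), went the other way. It encodes GARP, the surface protein that anchors latent TGF-β on T cells. Its level was 12.3, 18.5 and 25.8 CPM in Tfh2_4e4 and 26.7, 40.1 and 53.6 in Tfh2_6e4, so the groups did not overlap. The log2 fold change was 1.04 ± 0.22 (SE; adjusted p = 0.00689), and 1.07 (adjusted p = 0.0124) without replicate 3. In all, 18 of the 20 genes of the TGF-β and activin response list were tested, of which 1 rose and 3 fell. Over all genes 0.616% rose and 0.863% fell. The list's median was -0.08 against -0.01 over all genes. Classical SMAD feedback genes other than Pmepa1 did not pass, with Smad7 at 0.00 (adjusted p = 0.9996), Skil at -0.05 (adjusted p = 0.93) and Ski at -0.16 (adjusted p = 0.529). Tgfbi, a matrix protein gene, was at -1.07 (adjusted p = 0.153) and the receptor gene Tgfbr1 at -0.11 (adjusted p = 0.885).

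Among 10 tested genes for TGF-β supply, receptors and SMAD factors only the ligand gene Tgfb3 passed. It was at 12.7, 24.1 and 31.6 CPM in Tfh2_4e4 and at 37.0, 41.8 and 50.8 in Tfh2_6e4, with no overlap, and rose by 0.91 ± 0.23 (SE; adjusted p = 0.0264). Its call was lost without Tfh2_4e4 replicate 1 or 3 or Tfh2_6e4 replicate 2, 4 or 5. Tgfb1, the main T cell ligand, was at -0.02 (adjusted p = 0.988), the receptor gene Tgfbr2 at 0.02 (adjusted p = 0.981) and the signal carrier Smad3 at 0.10 (adjusted p = 0.758). The list's median was 0.05.

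**Figure D2:**
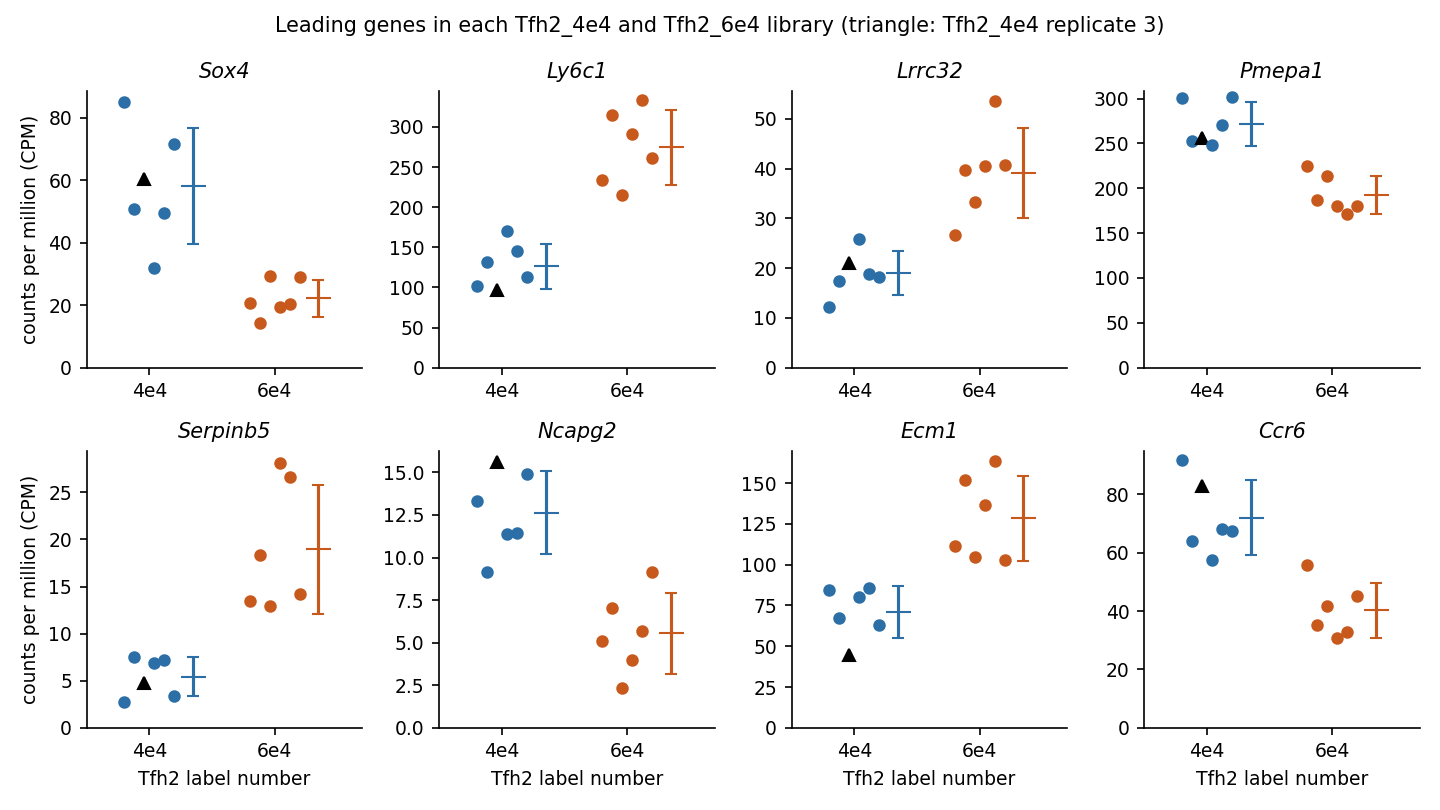
CPM (vertical axis, from 0) of 8 genes in each of 6 Tfh2_4e4 (blue) and 6 Tfh2_6e4 (orange) libraries, with mean ± SD beside the points and a black triangle for Tfh2_4e4 replicate 3. In each panel the 2 groups do not overlap, and the triangle lies within the spread of its group for Sox4, Lrrc32, Pmepa1 and Serpinb5 and at its end away from Tfh2_6e4 for Ly6c1, Ncapg2 and Ecm1.

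The genes that define the fates named in the title did not pass the test in this step. None of the 16 lineage genes was called, and 11 of them were abundant enough to be tested. Of these 4 were at an unadjusted p under 0.05, as were 1417 of all 11357 tested genes. Maf, which encodes c-Maf, was at 477, 604 and 775 CPM in Tfh2_4e4 and 506, 582 and 687 in Tfh2_6e4, a log2 fold change of -0.08 ± 0.10 (SE; adjusted p = 0.831). The groups overlapped. The TH17 cytokine gene Il17a went from 36.6, 65.1 and 133 CPM to 34.2, 46.3 and 71.9, with a change of -0.57 ± 0.21 (SE; adjusted p = 0.183), and Il17f was at -0.37 ± 0.12 (SE; adjusted p = 0.13). Il21, the cytokine of TFH and TH17 cells, was at -0.28 ± 0.11 (SE; adjusted p = 0.272). The TFH receptor genes Pdcd1, with 22.7, 33.0 and 46.8 CPM in Tfh2_4e4 and 13.3, 21.97 and 30.3 in Tfh2_6e4, and Cxcr5 were at -0.61 ± 0.17 (SE; adjusted p = 0.0577) and -0.52 ± 0.27 (SE; adjusted p = 0.425). Pdcd1 did pass in DESeq2 and not in limma-voom. Bcl6, the factor of the TFH fate, had 21 counts summed over Tfh2_4e4 and 20 over Tfh2_6e4, and the regulatory T cell factor Foxp3 10 and 1. Il4, the TH2 cytokine, had 0 counts in both, which allows up to 0.0661 CPM in Tfh2_4e4 and 0.0697 CPM in Tfh2_6e4 by a floor of 3 counts over a group. That floor covers counting error only.

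Other TFH-associated genes moved without a common direction. Of 20 tested, 1 rose and 2 fell, where 0.616% of all genes rose and 0.863% fell. The median of the 20 was -0.28. Tox, a nuclear factor of TFH and exhausted T cells, was at 13.4, 16.5 and 23.7 CPM in Tfh2_4e4 and 6.7, 9.55 and 11.1 in Tfh2_6e4. The groups did not overlap, and it fell by 0.94 ± 0.16 (SE; adjusted p = 5.70e-04). Angptl2, a secreted protein gene, was at -0.66 ± 0.15 (SE; adjusted p = 0.0138) with overlapping groups, and its call was lost without Tfh2_4e4 replicate 3 or Tfh2_6e4 replicate 4. Izumo1r, the gene of folate receptor 4, which marks TFH and regulatory cells, was at 32.5, 34.96 and 44.3 CPM and then 51.5, 57.6 and 69.8. It rose by 0.70 ± 0.14 (SE; adjusted p = 0.0031), with no overlap.

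Of 18 TH17-associated genes tested 1 rose and 1 fell, against 0.616% and 0.863% of all genes, and their median was 0.00. Ccr6, the chemokine receptor of TH17 cells, was at 57.6, 67.9 and 91.8 CPM in Tfh2_4e4 and 30.6, 38.5 and 55.9 in Tfh2_6e4. Every Tfh2_6e4 library lay below every Tfh2_4e4 library, and the log2 fold change was -0.83 ± 0.13 (SE; adjusted p = 2.40e-04). Basp1, a membrane protein gene, was at 0.38 ± 0.10 (SE; adjusted p = 0.0481), a call that was lost without Tfh2_4e4 replicate 1, 2, 3 or 6 or Tfh2_6e4 replicate 2, 4, 5 or 6. The TH1-associated list had 14 tested genes and a median of -0.07. Its called member, Nkg7, a cytotoxic granule gene, was at 19.0 CPM in Tfh2_4e4 replicate 3, at most 1.9 in the other 5 and at most 1.33 in Tfh2_6e4. Without that library its log2 fold change of -3.16 (adjusted p = 0.02998) became -0.95 (adjusted p = 0.728).

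Genes shared with regulatory T cells included several rises. Of 15 tested, 4 rose and 1 fell, where 0.616% of all genes rose and 0.863% fell, with a median of 0.11, and the same 4 were called without replicate 3. Besides Lrrc32 and Izumo1r these were Tnfrsf9, the costimulatory receptor 4-1BB, and Tnfrsf18, the receptor GITR. Tnfrsf9 was at 121, 235 and 255 CPM in Tfh2_4e4 and 259, 376 and 399 in Tfh2_6e4 and rose by 0.73 ± 0.17 (SE; adjusted p = 0.0166). The groups did not overlap, though the call was lost without Tfh2_4e4 replicate 1 or Tfh2_6e4 replicate 5. Tnfrsf18 was at 209.5, 286 and 325 CPM and 317, 371 and 436, with a change of 0.43 ± 0.11 (SE; adjusted p = 0.0263), and lost its call without Tfh2_4e4 replicate 1 or 6 or Tfh2_6e4 replicate 2, 4 or 5. The fallen member was Nt5e, given above. Il2ra, the gene of CD25, was at 0.14 ± 0.09 (SE; adjusted p = 0.547) and Ikzf2, the gene of Helios, at 0.56 (adjusted p = 0.268). Of the list, Lrrc32, Nt5e and Itgae are also in the TGF-β response list, and Foxp3 was too low to test.

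Ly6c1, on chromosome 15 (75044018 to 75048920), encodes a small surface protein anchored by a lipid and carried by memory and effector T cells. Among rises of genes averaging 3 or more in log2 CPM that were also called without replicate 3, its fold change was exceeded by that of Serpinb5 alone. Its level was 97.1, 123 and 170.1 CPM in Tfh2_4e4 and 215, 276 and 333 in Tfh2_6e4. The groups were clear of each other, with a log2 fold change of 1.12 ± 0.14 (SE; adjusted p = 4.07e-06) and 1.06 (adjusted p = 1.77e-05) without replicate 3. Its paralog Ly6a, the gene of Sca-1, rose by 0.48 ± 0.09 (SE; adjusted p = 0.00271), from 652, 804 and 882 to 993, 1073 and 1244 CPM, also with no overlap. Of 5 tested Ly6 genes 2 rose and none fell, where 0.616% of all genes rose. Reads of such close copies can be split or lost in counting, and how the authors handled them is not given in the sources used here. In the list of quiescence and homing genes 14 of 19 values were positive and the median was 0.15. Ccr7 was at 0.38 (adjusted p = 0.0966) and the transcription factor gene Klf2 at 0.15 (adjusted p = 0.898).

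Serpinb5, on chromosome 1 (106861175 to 106883348), encodes maspin, a serpin best known from epithelial cells, and is lowly expressed here. It was at 2.77, 5.84 and 7.56 CPM in Tfh2_4e4 and 12.9, 16.3 and 28.1 in Tfh2_6e4, a log2 fold change of 1.79 ± 0.33 (SE; adjusted p = 0.00162) with no overlap. Ecm1, a secreted matrix protein gene known for its part in the exit of T helper cells from lymph nodes, rose from 44.8, 73.9 and 85.4 CPM to 103, 124 and 164. Its change was 0.86 ± 0.14 (SE; adjusted p = 2.40e-04), and 0.76 (adjusted p = 0.00169) without replicate 3. Dntt, which encodes the enzyme that adds bases at antigen receptor joints in thymocytes, was at 39.1, 53.2 and 63.0 CPM and then 65.6, 87.3 and 110.4. It rose by 0.75 ± 0.18 (SE; adjusted p = 0.0166), a call that was lost without Tfh2_4e4 replicate 1 or Tfh2_6e4 replicate 5. The remaining large rises were Gimap7, a GTPase gene of lymphocytes (0.92; adjusted p = 0.0116), Neb, the gene of the muscle protein nebulin (0.91; adjusted p = 0.00505), Sipa1l1, a regulator of the GTPase Rap (0.64; adjusted p = 0.0148), and the noncoding RNA Epb41l4aos (0.62; adjusted p = 5.70e-04). Sipa1l1 lost its call without Tfh2_6e4 replicate 5. Epb41l4aos lies antisense to a neighbour, and since the strand setting of the counting is not given, reads of the 2 genes cannot be told apart.

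Genes of IL-2 and STAT5 signalling gave a short list. Of 16 tested 2 rose, the survival kinase genes Pim2 and Pim1, and none fell, with a median of 0.11. Over all genes 0.616% rose. Pim2 was at 34.9, 40.0 and 54.1 CPM in Tfh2_4e4 and 55.4, 63.2 and 77.4 in Tfh2_6e4, a change of 0.62 ± 0.15 (SE; adjusted p = 0.0204) with no overlap, and Pim1 was at 0.37 ± 0.09 (SE; adjusted p = 0.0261). Their calls were lost without Tfh2_4e4 replicate 1 or 3 or Tfh2_6e4 replicate 5 for Pim2 and without Tfh2_4e4 replicate 1 or 3 or Tfh2_6e4 replicate 2, 4 or 5 for Pim1. The direct STAT5 target Cish was at 0.16 (adjusted p = 0.513) and the receptor gene Il2rb at -0.04 (adjusted p = 0.915). Of 16 genes of the early response to the T cell receptor, 2 rose and 1 fell, against 0.616% and 0.863% of all genes. Egr1, a factor induced within minutes of receptor signalling, was at 26.9, 33.7 and 38.7 CPM and then 16.6, 19.8 and 32.4 and fell by 0.57 ± 0.13 (SE; adjusted p = 0.0144). Its call was lost without Tfh2_4e4 replicate 1 or Tfh2_6e4 replicate 2, 4 or 5. Fosl2 was at 0.46 ± 0.12 (SE; adjusted p = 0.0367) and Ier3 at 0.46 ± 0.12 (SE; adjusted p = 0.0329), with overlapping groups in both. The call of Fosl2 was lost without Tfh2_4e4 replicate 1 or 3 or Tfh2_6e4 replicate 2, 5 or 6, and that of Ier3 without Tfh2_4e4 replicate 1, 2 or 3 or Tfh2_6e4 replicate 2, 5 or 6. Egr2, Nr4a1 and Fos were at -0.66 (adjusted p = 0.206), -0.71 (adjusted p = 0.655) and -1.15 (adjusted p = 0.412).

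Several genes of DNA replication and nucleotide synthesis fell. Of 32 tested, 9 fell and none rose, where 0.863% of all genes fell, and 31 of the 32 values were negative. The median was -0.44 with replicate 3 and -0.38 without it, when 4 stayed called (Mcm5, Tk1, Rrm1 and Lig1). Mcm5, on chromosome 8 (75109468 to 75128439), is a subunit of the helicase that opens DNA. It was at 30.2, 42.2 and 57.6 CPM in Tfh2_4e4 and 17.1, 27.4 and 36.3 in Tfh2_6e4, groups that overlapped, with a change of -0.77 ± 0.16 (SE; adjusted p = 0.00681). Tk1, thymidine kinase, made in S phase, was at 9.83, 15.6 and 20.1 CPM and then 3.09, 7.72 and 11.1, a change of -1.06 ± 0.23 (SE; adjusted p = 0.00756). Tyms, which makes thymidylate, was at -0.97 ± 0.24 (SE; adjusted p = 0.0261) and Cdc45, a partner of the helicase, at -0.68 ± 0.18 (SE; adjusted p = 0.0385). Both lost their call without replicate 3, at -0.81 (adjusted p = 0.135) and -0.63 (adjusted p = 0.133), and in 7 and 9 of the 12 fits that each leave out 1 library. Pcna, the sliding clamp, was at -0.14 (adjusted p = 0.71) and Mcm6 at -0.09 (adjusted p = 0.824).

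The level of the whole replication list in a library was taken as the median, over its 32 tested genes, of log2(CPM + 0.5) after the gene's mean over the 12 libraries was subtracted. It ran from 0.00 to 0.52 in Tfh2_4e4 and from -0.42 to 0.03 in Tfh2_6e4. The groups overlapped narrowly, with Tfh2_6e4 replicate 1 above Tfh2_4e4 replicate 5. The highest library was Tfh2_4e4 replicate 3, the one with the TfhA genes. Mitosis genes leaned the same way with fewer calls. Of 25 tested 1 fell, where 0.863% of all genes fell, and 24 values were negative. The list's median was -0.30, or -0.26 without replicate 3. Mki67, the gene of the proliferation antigen Ki-67, was the called member, at 93.1, 131 and 167 CPM and then 77.3, 84.7 and 123, a change of -0.52 ± 0.13 (SE; adjusted p = 0.0338). Its call was lost without Tfh2_4e4 replicate 1, 3 or 6 or Tfh2_6e4 replicate 2, 3, 4 or 5. Ncapg2, on chromosome 12 (116405351 to 116463532), is a condensin subunit that packs chromosomes. It was at 9.15, 12.4 and 15.6 CPM and then 2.34, 5.4 and 9.12, groups that nearly touched, and fell by 1.18 ± 0.24 (SE; adjusted p = 0.00486). Spc25, a kinetochore subunit, was at -0.76 ± 0.13 (SE; adjusted p = 5.70e-04), also with no overlap. Cdkn1a, the gene of the CDK inhibitor p21, was the called member of 13 tested p53 targets. It was at 280.3, 316 and 409.9 CPM and then 413, 461 and 511 and rose by 0.48 ± 0.12 (SE; adjusted p = 0.0261), with no overlap. Its call was lost without Tfh2_4e4 replicate 1 or 3 or Tfh2_6e4 replicate 2 or 5. Mdm2, another p53 target, was at 0.09 (adjusted p = 0.871).

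**Figure D3:**
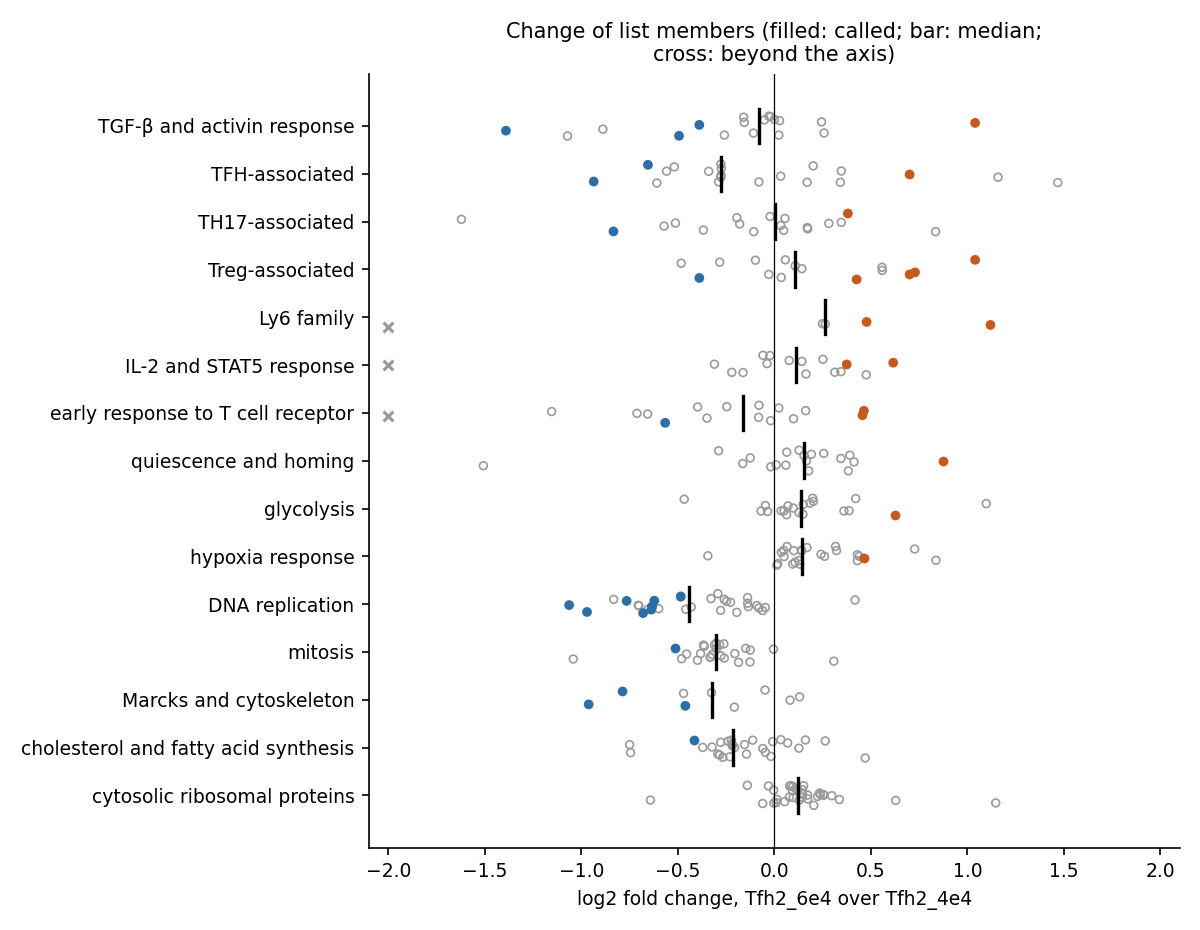
Log2 fold change of Tfh2_6e4 over Tfh2_4e4 (horizontal axis) for the tested members of 15 gene lists, 1 row a list; filled points passed the test (orange higher, blue lower), a black bar marks the median and crosses lie beyond the axis. The DNA replication and mitosis rows lie almost wholly left of 0 (medians -0.44 and -0.30), while 24 of 25 hypoxia genes lie just right of it.

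Cytoskeletal genes fell in part. Of 9 tested genes of that list 3 fell, Marcksl1, Stmn1 and Actb, where 0.863% of all genes fell. The median of the 9 was -0.33. Stmn1, whose protein takes microtubules apart in dividing cells, was at 61.4, 93.1 and 152 CPM in Tfh2_4e4 and 39.4, 62.7 and 79.9 in Tfh2_6e4, a change of -0.79 ± 0.16 (SE; adjusted p = 0.00505) with overlap. Marcksl1, a membrane protein that binds actin, was at -0.96 ± 0.22 (SE; adjusted p = 0.0144) and Actb, β-actin, at -0.46 ± 0.10 (SE; adjusted p = 0.0116). Marcksl1 lost its call without Tfh2_4e4 replicate 6 or Tfh2_6e4 replicate 5 or 6, and Actb without Tfh2_4e4 replicate 1 or 3 or Tfh2_6e4 replicate 5. Other named falls with no overlap between groups were Pdlim5, an adaptor of the actin cytoskeleton (-0.998; adjusted p = 1.26e-04), Rhot2, which anchors mitochondria to their motors (-0.80; adjusted p = 0.0154), and Cysrt1 (-0.81; adjusted p = 0.008003). These 3 kept their calls when any 1 library was left out.

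Several other lists had no called member. None of the genes in the lists of ribosomal proteins (36 tested), ribosome biogenesis (20), respiratory chain (31), interferon-stimulated genes (18), ER chaperones (17), lysosome and autophagy (21), SLAM receptors (6) or co-inhibitory receptors (7) passed in edgeR's quasi-likelihood test. Their medians lay between -0.15 for ER chaperones and 0.22 for SLAM receptors. With 1.48% of all genes called, lists of these sizes can hold no call, so its absence says little about them. At an unadjusted p under 0.05 these lists had 5, 2, 2, 4, 1, 6, 2 and 3 members, in the same order. Of all 11357 tested genes 1417 were under it. Cholesterol synthesis had 1 called gene of 28, Cyp51, a sterol demethylase, at -0.42 ± 0.10 (SE; adjusted p = 0.0262), and 22 negative values. The call was lost without Tfh2_4e4 replicate 1, 3 or 6 or Tfh2_6e4 replicate 2, 4, 5 or 6. In the ATF4 list of 26 genes the called member was Chac1, which was at 2.93 CPM in Tfh2_4e4 replicate 3, at most 0.66 in the other 5 libraries and 0 throughout Tfh2_6e4. Without that library it did not pass (adjusted p = 0.138).

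Glycolysis and hypoxia genes, many of which had risen at the low end of the series, were called less often in the last step. From Tfh2_1e4 to Tfh2_2e4, 22 of 25 hypoxia genes and 12 of 20 glycolysis genes rose, when 4.06% of all genes rose and 1.2% fell. Their medians were then 0.85 and 0.59. In the step to Tfh2_6e4, 1 gene of each list rose, when 0.616% of all genes rose. The hypoxia gene that rose also belongs to another list described above, so it is not a separate call. Without Tfh2_4e4 replicate 3 the hypoxia call was lost and the glycolysis call was kept. The medians in this step were 0.14 and 0.14, or 0.24 and 0.24 per doubling of the label number. The hypoxia median was 0.31 among replicates 1 to 3 alone, which include Tfh2_4e4 replicate 3. By the per-library level described for the replication list, that library was the lowest for the hypoxia list at -0.31, followed by Tfh2_4e4 replicate 1 at -0.28. Replicates 4 to 6 were at 0.04, 0.00 and -0.07 in Tfh2_4e4 and at 0.17, 0.12 and 0.03 in Tfh2_6e4.

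Slc2a3, the gene of the glucose transporter GLUT3, was the glycolysis gene that still rose. It was at 198, 279 and 333 CPM in Tfh2_4e4 and 375, 419.9 and 445 in Tfh2_6e4, a change of 0.62 ± 0.13 (SE; adjusted p = 0.00775) with no overlap. Over the whole course it was at 10.8 ± 1.69 CPM in Tfh2_1e4 (SD, n = 6), 62.8 ± 19.4 in Tfh2_2e4 (n = 5), 270.1 ± 55.6 in Tfh2_4e4 (n = 6) and 416 ± 28.9 in Tfh2_6e4 (n = 6). Aldoc, an aldolase, was at 21.7 ± 7.5 CPM in Tfh2_1e4 (SD, n = 6), 103 ± 27.3 in Tfh2_2e4 (n = 5), 239 ± 17.98 in Tfh2_4e4 (n = 6) and 255 ± 26.6 in Tfh2_6e4 (n = 6). It had risen in the first step (2.25; adjusted p = 1.29e-14) and did not pass in the last (0.10; adjusted p = 0.859). Bnip3, on chromosome 7 (138890836 to 138909506), a mitochondrial protein that promotes mitophagy, was at 68.7 ± 19.0 CPM in Tfh2_1e4 (SD, n = 6), 181 ± 34.1 in Tfh2_2e4 (n = 5), 323 ± 12.9 in Tfh2_4e4 (n = 6) and 356 ± 22.8 in Tfh2_6e4 (n = 6). Ldha, lactate dehydrogenase, was at -0.04 (adjusted p = 0.951) and Pgk1 at -0.47 (adjusted p = 0.718) in the last step.

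Whether the change per doubling differed between the last and the first step was tested directly, since these steps share no library. Of 11357 genes 39 differed (0.343%), and in all 39 the last step was the lower one per doubling. At an unadjusted p under 0.05, 868 genes differed, and of genes higher in the last step DESeq2 called 5 and limma-voom 1. Leaving out 1 library brought the count to between 18 and 43, and it fell by over 1.5 times without Tfh2_4e4 replicate 3 (18), Tfh2_6e4 replicate 2 (18), 3 (24), 4 (22) or 5 (21), or Tfh2_2e4 replicate 6 (24). In the hypoxia list 5 genes differed, Vldlr, a lipoprotein receptor, by -2.46 ± 0.37 (SE; adjusted p = 2.32e-04), Ndrg1, a stress protein, by -1.81 ± 0.29 (SE; adjusted p = 7.92e-04), the collagen prolyl hydroxylase P4ha2 by -1.46 ± 0.30 (SE; adjusted p = 0.0135), Bnip3 by -1.16 ± 0.24 (SE; adjusted p = 0.0151) and Selenbp1, a methanethiol oxidase, by -3.86 ± 0.65 (SE; adjusted p = 0.00107). Both called glycolysis genes, Aldoc at -2.08 ± 0.28 (SE; adjusted p = 4.89e-05) and Slc2a3 at -1.47 ± 0.27 (SE; adjusted p = 0.00486), were of the same kind. These 7 kept their call when any 1 of 23 libraries was left out. Selenbp1 was at 0.124 ± 0.143 CPM in Tfh2_1e4, 7 counts in all, so its first step rests on few counts. Set against the slope from 1e4 to 4e4 in place of the first step, the count was 8, of which 7 were among the 39. Of the 7 genes named here Aldoc, Slc2a3, Vldlr and Selenbp1 were still called against it, and Ndrg1, P4ha2 and Bnip3 were not.

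The group means of Ly6c1, Lrrc32, Ecm1, Pmepa1 and Sox4 moved in 1 direction over the whole course, while those of Egr1 and Rhot2 did not. Rhot2 was at 17.2 ± 2.68 CPM in Tfh2_1e4, 13.5 ± 2.58 in Tfh2_2e4, 16.6 ± 1.95 in Tfh2_4e4 and 9.55 ± 0.692 in Tfh2_6e4. Ly6c1 was at 7.87 ± 1.53 CPM in Tfh2_1e4 (SD, n = 6), 29.7 ± 7.94 in Tfh2_2e4 (n = 5), 126 ± 28.1 in Tfh2_4e4 (n = 6) and 275 ± 46.4 in Tfh2_6e4 (n = 6). Per doubling it rose by 1.92 in the first step and by 1.91 in the last, and the difference was -0.00 (adjusted p = 0.9999). No standard error is given for it, because one taken from the root of F is unreliable for a value this near 0. Lrrc32 was at 1.9 ± 0.867 CPM in Tfh2_1e4 (SD, n = 6), 4.62 ± 2.07 in Tfh2_2e4 (n = 5), 18.9 ± 4.42 in Tfh2_4e4 (n = 6) and 39.1 ± 8.99 in Tfh2_6e4 (n = 6), with a difference of 0.50 ± 0.48 (SE; adjusted p = 0.912). Ecm1 went from 19.3 ± 3.13 CPM in Tfh2_1e4 to 26.3 ± 3.47 in Tfh2_2e4, 70.9 ± 15.8 in Tfh2_4e4 and 128 ± 26.0 in Tfh2_6e4. Its difference of 1.03 ± 0.28 (SE; adjusted p = 0.109) did not pass. Pmepa1 went from 648 ± 28.8 over 409.8 ± 50.4 and 272 ± 24.1 to 193 ± 21.2 CPM, with a difference of -0.18 ± 0.17 (SE; adjusted p = 0.905). For Ly6c1, Lrrc32, Ecm1 and Pmepa1 the test thus gave no call, which does not show equal slopes. Sox4 was at 236 ± 33.0 CPM in Tfh2_1e4 (SD, n = 6), 124 ± 28.7 in Tfh2_2e4 (n = 5), 58.2 ± 18.6 in Tfh2_4e4 (n = 6) and 22.1 ± 5.84 in Tfh2_6e4 (n = 6). Its fall per doubling was -0.93 in the first and -2.38 in the last step, a difference of -1.45 ± 0.35 (SE; adjusted p = 0.0431) that lost its call in 14 of 23 fits that leave out 1 library. Egr1 was at 65.4 ± 5.79 CPM in Tfh2_1e4, 83.2 ± 13.98 in Tfh2_2e4, 33.0 ± 3.88 in Tfh2_4e4 and 22.3 ± 6.22 in Tfh2_6e4, so that its peak was in Tfh2_2e4. Its difference was -1.32 ± 0.26 (SE; adjusted p = 0.00666).

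**Figure D4:**
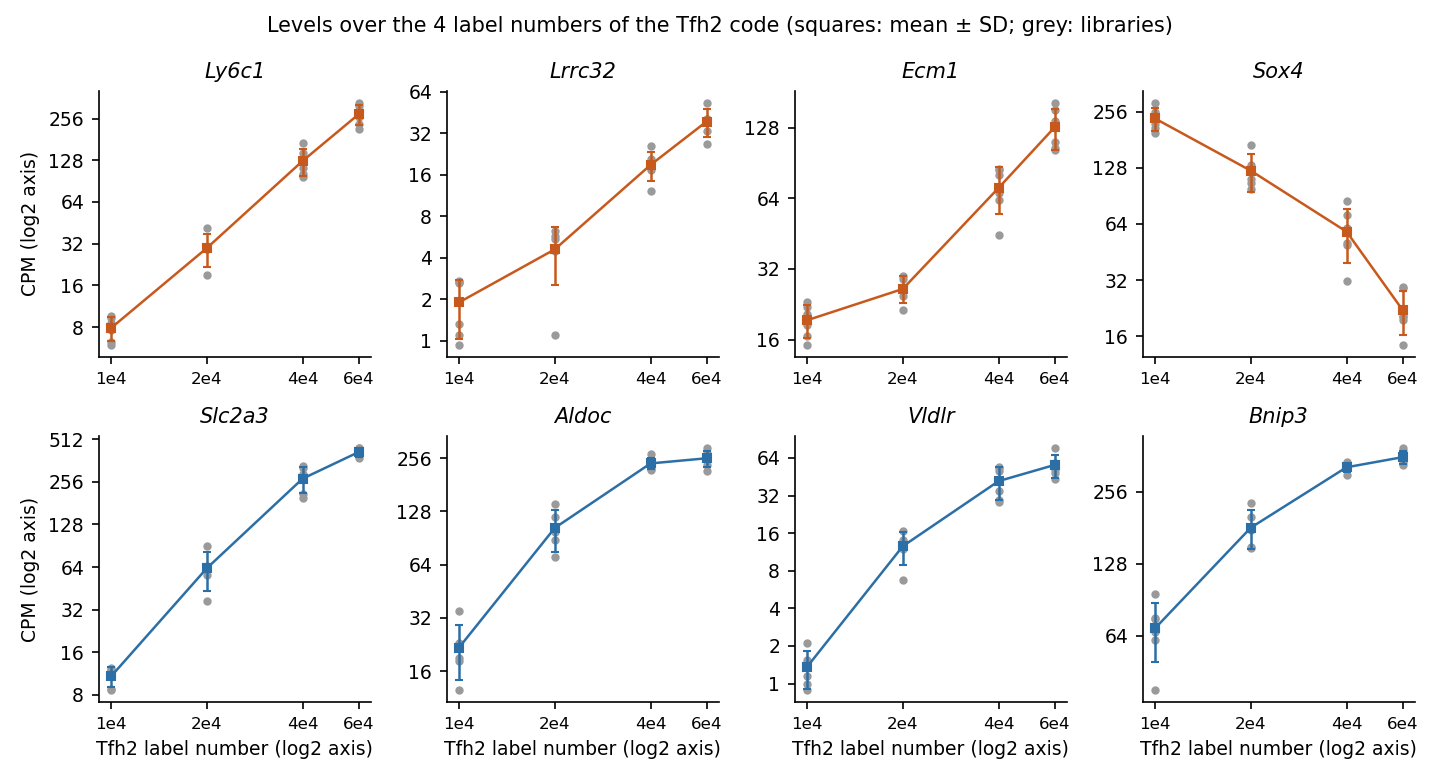
Level in CPM (vertical log2 axis) over the label numbers 1e4, 2e4, 4e4 and 6e4 of the Tfh2 code (horizontal log2 axis) for 8 genes; squares are means with SD and grey points are libraries. Ly6c1, Lrrc32 and Ecm1 keep climbing and Sox4 keeps falling to 6e4, while Aldoc and Bnip3 are nearly flat from 4e4 (239 and 323 CPM) to 6e4 (255 and 356 CPM).

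Of the 70 genes that rose in the last step 42 (60.0%) had also risen in the first, which is 9.11% of the 461 that rose there. Of the 98 that fell 23 (23.5%) had fallen in the first step, 16.9% of 136, and 1 gene called in both moved in opposite directions. Replicates 1 to 3 and 4 to 6 gave separate estimates of the last step. For Sox4 these were -1.60 and -1.14, for Ly6c1 1.21 and 1.06, for Lrrc32 0.97 and 1.11, and for Pmepa1 -0.36 and -0.62. The sign was the same in both ranges for each of the 4.

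A large share of the calls depended on Tfh2_4e4 replicate 3, the library high in TfhA genes, but such a loss was not particular to it. Of the 168 calls 75 were kept without it, 78 without Tfh2_4e4 replicate 1 and 55 without Tfh2_6e4 replicate 5. Leaving out any other library of the step kept between 90 (Tfh2_6e4 replicate 2) and 161 (Tfh2_4e4 replicate 4). Of the 168 called genes 93 were not called without it, 39 of the rises and 54 of the falls, and in 43 of the 93 it was the library of its group farthest from Tfh2_6e4. The same held in 23 of the 75 genes that stayed called and in 66 of all 168, and the 93 are defined by the removal of that library. Gap43, a growth cone protein gene, was at 24.9 CPM there, 1.1 to 8.7 in the other 5 and 82.0 on average in TfhA_4e4. Its fold change moved from -1.97 (adjusted p = 0.0238) to -1.15 (adjusted p = 0.289) without it. Spp1, the gene of osteopontin, was at 9.97 CPM against 0.519 to 2.25, and moved from -2.12 to -1.19 (adjusted p = 0.339). Zbtb32, a repressor of cytokine genes, and S100a6 were called at -1.21 ± 0.29 (SE; adjusted p = 0.0188) and -0.93 ± 0.25 (SE; adjusted p = 0.0484), and without that library were at -0.61 (adjusted p = 0.265) and -0.43 (adjusted p = 0.454). The 12 largest rises and 12 largest falls named here were called without it by the rule that chose them. Whether RNA of TfhA-like cells in that library moved these values was not tested.

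**Figure D5:**
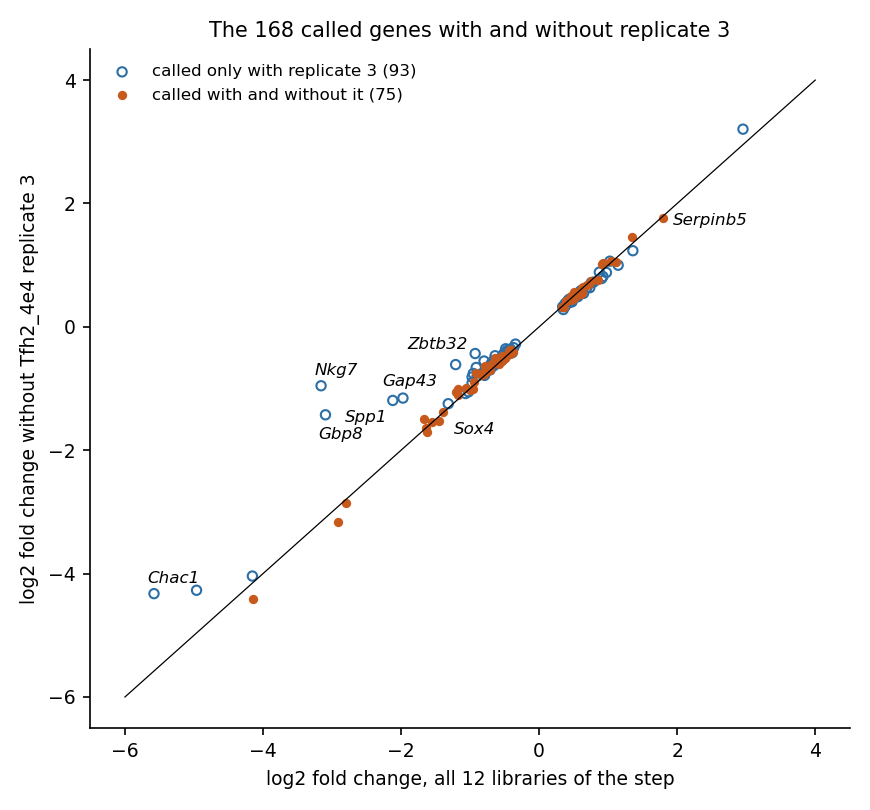
Log2 fold change of the 168 called genes with all 12 libraries (horizontal axis) and without Tfh2_4e4 replicate 3 (vertical axis); the line marks equal values, filled points (75) were called both ways and open points (93) only with that library. Nkg7, Gbp8, Spp1, Gap43 and Zbtb32 lie well above the line, so their falls were smaller without it, while Sox4 and Serpinb5 lie on it.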

How the data were processed

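The libraries were made from 50 ng of total RNA with a kit that reads the 3′ ends of mRNA, per the labels' protocols, so a count does not scale with transcript length. The whole-number counts per gene were deposited by the authors, 1 file a library. Per the submitters' processing notes the build was mm10 and the tools included featureCounts 1.6.4 and STAR 2.7.2b. The strand setting and the handling of reads with several matches are not given in the sources used here. Of 27179 gene identifiers 25275 matched a symbol in the RefSeq annotation of GRCm38.p6, and the 1904 others, with 48.8% of counts, kept their identifier.

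The 34 libraries of 6 groups were fitted together with edgeR 4.0.16 in R 4.3.3 (TMM scaling, filterByExpr by group, quasi-likelihood F test), and p-values were adjusted by Benjamini-Hochberg over 11357 genes with a threshold of 0.05. Standard errors are the log2 fold change divided by the root of F, a form that is unreliable where the fold change is near 0. CPM values are scaled by TMM. The last step was also divided by the log2 of its number ratio and set against the first step in the same fit. Single measures over libraries were compared with an exact two-sided permutation test, which cannot go below p = 0.00216 for 6 against 6. The fit was tested on simulated data. Alternatives were limma 3.58.1 (voom), DESeq2 1.42.0, other filters, scalings and covariates, and leaving out libraries.

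Named genes are Sox4, Ly6c1, Lrrc32, Pmepa1, 16 lineage genes, and the 12 strongest changes each way among genes averaging 3 or more in log2 CPM that were also called without Tfh2_4e4 replicate 3 (predicted genes passed over), up to 4 called members a list averaging 1 or more, 10 genes high in TfhA_4e4, and the 4 highest and 4 lowest differences between the steps. These differences were ranked among genes called for them. Members of the glycolysis and hypoxia lists called for this difference were also named, after their values were seen. The members and lists were chosen with earlier results of these data known. Upstream sequences are from RefSeq, GRCm38.p6; 8853 of the tested genes have an entry. Some named genes are not reported here.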

Additional observations from a re-analysis of the deposited data

Results flagged for a closer look

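Within groups of 6, a library was singled out where its gap to the nearest other was over Dixon's 95% critical share of the group's range. Of 186 groups of values examined 21 passed. The genes high in TfhA_4e4 were among those examined and had been picked on these libraries, so this number is not set against chance. In 8 of the 21 the library was Tfh2_4e4 replicate 3, each time for a gene of that list or for its summed level. That library was the highest of its group for Tbx21 at 4.22 CPM against 0 to 0.967 (gap share 0.771), Zbtb32 at 20.4 CPM against 3.18 to 6.74 (gap share 0.793), S100a6 at 76.0 CPM against 19.5 to 27.3 (gap share 0.862), Nrn1 at 90.1 CPM against 17.3 to 31.6 (gap share 0.803). It was likewise the highest for Tg at 30.1 CPM against 7.66 to 12.3 (gap share 0.795), Cxcr3 at 7.86 CPM against 0 to 2.77 (gap share 0.648), Trim30a at 47.0 CPM against 10.7 to 21.1 (gap share 0.714) and the summed level of the TfhA genes at 322 CPM against 94.4 to 109 (gap share 0.937).

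In Tfh2_4e4 replicate 2 the lowest of 6 values were Basp1 at 56.5 CPM against 72.5 to 80.3 (gap share 0.671) and the mitochondrial rRNA share at 8.06% against 9.99 to 11.1 (gap share 0.645). In Tfh2_4e4 replicate 5 the highest of 6 values was Ifng at 0.161 CPM against 0 (gap share 1). That flag and the one for Foxp3 given below each rest on 1 count. In Tfh2_6e4 replicate 1 the highest of 6 values were Cxcr5 at 11.0 CPM against 3.68 to 6.003 (gap share 0.684), Hilpda at 326 CPM against 266 to 287 (gap share 0.652) and the summed level of CD8 T cell markers at 11.2 CPM against 3.85 to 6.46 (gap share 0.647). In Tfh2_6e4 replicate 3 the highest of 6 values were Pdlim5 at 42.2 CPM against 21.9 to 29.4 (gap share 0.631) and the number of genes with a count at 12651 against 12308 to 12418 (gap share 0.679). In Tfh2_6e4 replicate 4 the lowest of 6 values was P4ha2 at 42.0 CPM against 60.4 to 63.8 (gap share 0.843). In Tfh2_6e4 replicate 6 the highest of 6 values were Tbx21 at 1.77 CPM against 0.293 to 0.718 (gap share 0.713), Foxp3 at 0.127 CPM against 0 (gap share 1), Dock10 at 12.7 CPM against 3.01 to 6.53 (gap share 0.636) and Parp9 at 45.2 CPM against 34.9 to 38.5 (gap share 0.651).

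The change per doubling of the label number differed between the last and the first step, by the test of that difference in edgeR, for 18 of the named genes. In each it was lower in the last step, as in all 39 genes called for this difference. Many of the 18 were named because they had passed this test, so their number and direction are a description. The log2 differences were Selenbp1 -3.86 (adjusted p = 0.00107), H2-Q10 -3.55 (adjusted p = 0.0151), Nrn1 -3.48 (adjusted p = 0.0242), Plcxd1 -2.85 (adjusted p = 0.00666), Vldlr -2.46 (adjusted p = 2.32e-04) and Trim30a -2.13 (adjusted p = 0.0242). Intermediate values were Aldoc -2.08 (adjusted p = 4.89e-05), Ndrg1 -1.81 (adjusted p = 7.92e-04), Slc2a3 -1.47 (adjusted p = 0.00486), P4ha2 -1.46 (adjusted p = 0.0135), Sox4 -1.45 (adjusted p = 0.0431) and Tox -1.33 (adjusted p = 0.0339). The smallest were Egr1 -1.32 (adjusted p = 0.00666), Bnip3 -1.16 (adjusted p = 0.0151), Il21 -1.04 (adjusted p = 0.0242), Parp9 -1.01 (adjusted p = 0.0306), Hilpda -1.01 (adjusted p = 0.0306) and Celf2 -0.84 (adjusted p = 0.0493). Set against the slope from 1e4 to 4e4, 5 of the 18 calls were kept (Slc2a3, Aldoc, Vldlr, Selenbp1 and Parp9) and the 13 others were lost. When 1 of 23 libraries was left out, the call was lost in 18 fits for Celf2, in 14 each for Sox4, Tox and Hilpda, in 12 for Parp9, in 6 for Trim30a, in 5 for Il21 and in 4 for Nrn1. Those of Nrn1 and Trim30a were lost without Tfh2_4e4 replicate 3 and without Tfh2_2e4 replicate 6, the libraries high in TfhA genes. The other 10 kept their call in each of these fits.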

How the results depend on the processing

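Of the 47 named genes with a call none changed sign under any alternative, and Sox4, Ly6c1, Ecm1, Ccr6 and Mcm5 passed in every one. The number of genes called for the step, 168, was 275 with DESeq2, 74 with only the groups of the contrast, 303 with a factor for the range of replicate numbers, 23 with replicates 1 to 3 only and 34 with replicates 4 to 6 only. Leaving out 1 library at a time gave 55 to 269. The number called for the difference between the steps, 39, was 21 with limma-voom, 81 with no filter on low counts, 8 with only the groups of the contrast, 60 with the factor, 8 against the slope from 1e4 to 4e4, and 18 to 43 when 1 library was left out. DESeq2 called 5 higher and 46 lower there. Leaving out both Tfh2_4e4 replicate 3 and Tfh2_2e4 replicate 6, an alternative chosen after seeing the data, gave 90 and 14. The difference in summed CPM of the TfhA genes was -36.9 and turned to 0.229 without Tfh2_4e4 replicate 3. The cause was not tested.

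Replicate numbers were not taken as pairs. Of 6 same-number correlations of deviations 4 were over 0.1, with a mean of 0.210 and a range of -0.107 to 0.505. With the replicate block the counts were 381 and 93, and all 47 named calls were kept. Genes under the filter, among them Bcl6, Foxp3, Il4, Ifng and Prdm1, cannot be compared at this depth.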

Other observations

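Further called genes outside the lists were chosen here after their values were seen, and no test was made of them as a group. Among the falls were genes of kinetochores, which tie chromosomes to the spindle. Ndc80 was at -0.71 (adjusted p = 0.023), Cenph at -0.58 (adjusted p = 0.0195) and the mitotic kinase gene Nek2 at -1.45 (adjusted p = 0.0148) on the log2 scale. Chromatin and nuclear structure genes also fell, with the condensin subunit Smc2 at -0.55 (adjusted p = 0.0204), the helicase Hells at -0.61 (adjusted p = 0.0333), lamin B1, Lmnb1, at -0.57 (adjusted p = 0.0143), and the histone methyltransferase Ezh2 at -0.37 (adjusted p = 0.0311). Without Tfh2_4e4 replicate 3, Smc2 and Nek2 passed at -0.56 (adjusted p = 0.0397) and -1.53 (adjusted p = 0.0241), while Ndc80, Cenph, Hells, Lmnb1 and Ezh2 did not. Flna, the actin crosslinker filamin A, fell at -0.53 (adjusted p = 0.003996) and Timp2, an inhibitor of matrix proteases, at -0.74 (adjusted p = 0.00177), and both passed without that library.

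Among the rises were Stat5a, a transcription factor activated by IL-2, at 0.55 (adjusted p = 0.0148), Samhd1, which breaks down nucleotides for DNA synthesis, at 0.34 (adjusted p = 0.0154), and Ncf1, a subunit of the NADPH oxidase, at 1.35 (adjusted p = 0.00254). All 3 passed without Tfh2_4e4 replicate 3. Cd63, a tetraspanin of late endosomes, and Enpp2, which encodes the enzyme autotaxin, had large rises of 1.36 (adjusted p = 0.0338) and 1.14 (adjusted p = 0.0155), which without that library were 1.23 (adjusted p = 0.114) and 0.999 (adjusted p = 0.0561).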
